A study of Mus musculus with 12 samples.

Results

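NF-kB is a family of transcription factors that T cells switch on when their antigen receptor and costimulatory receptors are engaged. This account covers 10 genes of its core: the 5 subunit genes Nfkb1, Nfkb2, Rel, Rela and Relb, and 5 genes of the I-kappa-B family, Nfkbia, Nfkbib, Nfkbie, Nfkbid and Bcl3. The rows were taken by gene symbol, and all 10 were found among the 17203 genes listed. RNA was sequenced from 12 libraries of primary CD4+ T cells (helper T lymphocytes) isolated from C57BL/6 mice, with no other allele named. CD3_CD28_ICOS cells were cultured for 72 h with 3 antibodies, to CD3, CD28 and ICOS, all in soluble form by their label. CD3_CD28 cells had anti-CD3 bound to the plate plus soluble anti-CD28 for 72 h, and CD3 cells had only the plate-bound anti-CD3 for 72 h. Unstimulated cells were freshly isolated and had no activation. Their sample descriptions call them Naive_CD4, and the descriptions of the other groups do not carry the word naive. Each group had 3 libraries, and the labels do not say whether these came from separate mice or cultures, and the p-values therefore rest on differences among libraries that may be technical. Anti-CD3 engages the T cell receptor complex, whereas CD28 and ICOS are related costimulatory receptors. Because the fresh cells were not cultured, stimulation and 72 h of culture cannot be told apart in any comparison with them. Likewise, anti-ICOS and the soluble format of anti-CD3 cannot be told apart between CD3_CD28_ICOS and the plate-bound groups. Transduction is mentioned in the series' design text and in no sample label.

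NF-kB proteins work as dimers. In resting cells, inhibitors of the I-kappa-B family hold the dimers in the cytoplasm; the IKK kinase complex marks the inhibitors for destruction, and the freed dimers enter the nucleus. The classical arm, which antigen receptor signals reach in T cells, mainly frees dimers with RelA or c-Rel. The alternative arm depends on processing of the Nfkb2 precursor and frees RelB. Several members are themselves known NF-kB targets, so the pathway writes its own subunits and brakes.

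DNA upstream of the start sites is shown first, because the known self-regulation of this family runs through kappa-B sites, the sequences NF-kB dimers bind. Windows of 250 bases upstream of annotated RefSeq start sites (GRCm38.p6) were at hand for 8 of the 10 genes; Nfkb1 and Relb had none. The 10-base kappa-B consensus was searched on both strands, and overlapping matches are shown as 1 stretch; no other motif was searched. Nfkb2, Rel, Nfkbia, Nfkbie and Nfkbid held at least 1 match, that is 5 of 8 genes, whereas 8.23% of all 27025 genes with windows did. The windows of Rela, Nfkbib and Bcl3 had no match, which says only that these letters are not in these windows. Below, capitals mark the matched bases, and each sequence runs 5′ to 3′ on the strand of its gene. The Rel stretch (chr11:23770971-23771219, minus strand), the Nfkbia stretch (chr12:55492648-55492897, minus strand) and the Nfkbie stretch (chr17:45555450-45555699, plus strand) lie upstream of the annotated gene. For Nfkb2 only the matches nearest 1 of its start sites are given (chr19:46304689-46304717 and chr19:46304717-46304736, plus strand), because that window overlaps annotated exons of Nfkb2 and AC114539.1.
Rel: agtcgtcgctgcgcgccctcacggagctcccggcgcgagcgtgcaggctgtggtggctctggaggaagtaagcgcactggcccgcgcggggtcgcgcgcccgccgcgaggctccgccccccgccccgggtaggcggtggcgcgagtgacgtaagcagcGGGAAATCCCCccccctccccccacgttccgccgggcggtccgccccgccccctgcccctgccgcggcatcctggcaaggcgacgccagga
Nfkbia: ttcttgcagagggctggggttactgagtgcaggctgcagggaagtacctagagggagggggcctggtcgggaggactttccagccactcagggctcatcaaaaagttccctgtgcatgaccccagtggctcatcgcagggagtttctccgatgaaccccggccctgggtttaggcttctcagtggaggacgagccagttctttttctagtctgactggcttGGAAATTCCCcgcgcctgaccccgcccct
Nfkbie: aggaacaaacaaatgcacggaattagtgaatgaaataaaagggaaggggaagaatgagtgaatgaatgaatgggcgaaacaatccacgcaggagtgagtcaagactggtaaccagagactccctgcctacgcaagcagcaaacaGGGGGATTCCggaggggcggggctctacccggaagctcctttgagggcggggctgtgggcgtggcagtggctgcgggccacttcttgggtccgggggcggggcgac
Nfkb2, farther match: gatcgtcacGGGAATTCCCCccctcgggg
Nfkb2, nearer match: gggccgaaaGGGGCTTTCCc
The match began 92 bases before the start site in Rel, 29 bases before it in Nfkbia and 106 bases before it in Nfkbie. In Nfkb2 the printed matches began 39 and 11 bases before 1 of its 3 annotated start sites. Matches not printed lay 236 and 225 bases before the others. Genes with more windows had more chances of a match, and all 27025 genes together had 32851 windows. Nfkbid had matches 226 and 181 bases before 1 of its 3 annotated start sites. Whether any of these sites is bound in these cells was not measured.

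Levels are in CPM, the reads of a gene in 1000000 reads assigned to genes, and depth was estimated at between 11.4 and 37.5 times that number of reads per library. All 7 CD4 T cell markers were read in every library, with summed levels of 4219 to 4571 CPM in CD3_CD28_ICOS, 2740.5 to 3228 in CD3_CD28, 3134 to 3656 in CD3 and 5188 to 5732 in Unstimulated. Proliferation markers (6 genes) summed to 1821 to 2702 CPM in CD3_CD28_ICOS, 1618 to 2686 in CD3_CD28, 3564 to 3961 in CD3 and 149.8 to 207 in Unstimulated. The fresh cells also held other transcripts: 7 myeloid markers summed to 9.50 to 19.4 CPM over the stimulated libraries and 150.2 to 364 in Unstimulated, and 5 pancreas markers to 0.044 to 0.965 CPM over the stimulated libraries and 229.5 to 1228 in Unstimulated. Erythroid and platelet markers (5 genes) summed to 0.176 to 3.41 CPM over the stimulated libraries and 74.7 to 145 in Unstimulated. These values move with every comparison with fresh cells, and their part in the results was not tested. B cell markers (8 genes) summed to 207 to 621 CPM in CD3_CD28_ICOS, 7.29 to 11.4 in CD3_CD28, 302 to 657 in CD3 and 122 to 218 in Unstimulated. Markers of CD8 T and NK cells (5 genes) summed to 70.1 to 158, 39.0 to 45.3, 50.2 to 99.5 and 42.1 to 66.4 in the same order. The B cell sums set CD3_CD28 apart from both other stimulated groups, and their part in the level of any member was not tested. A ribosomal RNA gene, CT010467.1, took 11.8% of the reads in CD3_CD28 replicate 1 and 1.26 to 3.20% elsewhere. In that library 9 of the 10 genes and 66.9% of all tested genes had the lowest value of their group. Lowest values were also frequent in CD3_CD28_ICOS replicate 2 (8 of the 10 genes, 47.3% of tested genes) and in Unstimulated replicate 2 (8 of the 10 genes, 23.0% of tested genes). In bulk RNA, fewer cells of a type and less RNA per cell cannot be told apart.

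Most of the NF-kB genes were higher after stimulation, and 7 of the 10 had their highest group mean in CD3_CD28. Among these 7, Relb, Nfkbid and Bcl3 were not called there against the group with the next mean (limma adjusted p = 0.0749, 0.532 and 0.374). The share of all tested genes with their highest mean in CD3_CD28 was not computed. Against Unstimulated cells, 6 of the 10 genes rose and 1 fell in CD3_CD28_ICOS, where 35.6% of the 9826 tested genes rose and 23.7% fell (limma adjusted p under 0.05). In CD3_CD28 against Unstimulated 7 rose and 1 fell, against 36.1% and 39.1% of all tested genes. In CD3 against Unstimulated 7 rose and 0 fell, against 43.6% and 26.3% of all tested genes. In that last comparison 1 gene, Nfkbid, was lower at an unadjusted p under 0.05. The authors' deposited table calls 4 higher and 0 lower there, with its share of all genes not computed. Under quantile normalization 4 rose and 2 fell in CD3 against Unstimulated, beside 3313 and 3684 of all 9826 tested genes. Under median-of-ratios scaling 5 rose and 2 fell, beside 3544 and 3466. Nfkb1, Nfkb2, Rel, Relb and Bcl3 rose in all 3 of these comparisons, which share the Unstimulated libraries, although Bcl3 in CD3 did not pass under either other scaling of the libraries.

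In CD3_CD28 against CD3, 6 of the 10 genes rose and 1, Nfkbie, fell, whereas 18.7% of tested genes rose and 45.7% fell. The count that rose was 8 under median-of-ratios scaling, with CT010467.1 left out and without CD3_CD28 replicate 1, where Rel and Relb joined it, and 7 under quantile normalization. It was 5, with Nfkbid lost, without CD3 replicate 1 or 2 and without CD3_CD28 replicate 2 or 3. The count over all tested genes moved too, from 1837 of 9826 to 2909 under median-of-ratios scaling and 2808 under quantile normalization. It was 2151 of 9825 with CT010467.1 left out and 1874 of 9826 without CD3_CD28 replicate 1. Of the 9826 genes, 1644 and 1623 rose without CD3 replicates 1 and 2, and 1537 and 1601 without CD3_CD28 replicates 2 and 3. In CD3_CD28_ICOS against CD3_CD28, 1 gene, again Nfkbie, rose and 5 fell, against 38.5% and 24.5% of tested genes; both comparisons use the CD3_CD28 libraries. In CD3_CD28_ICOS against CD3, 2 genes, Rel and Bcl3, rose and 0 fell, against 18.9% and 28.7% of tested genes. No member was lower there at an unadjusted p under 0.05 either, a count of 0, and the authors' deposited table also calls 0 lower. An F test of any difference among the stimulated groups passed in 7 of the 10 genes and in 80.7% of tested genes. It passed in 9 of the 10 genes under quantile normalization, under median-of-ratios scaling, with CT010467.1 left out and without CD3_CD28 replicate 1, and in 6 without CD3_CD28 replicate 3. The share of all tested genes was not computed in these settings, so these counts cannot be set beside 80.7%. With the deposited scaling the genes that missed the F test were Rel (limma adjusted p = 0.068), Rela (0.189) and Relb (0.0939).

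The median log2 fold change of the 10 genes was 0.80 in CD3_CD28_ICOS, 1.06 in CD3_CD28 and 0.57 in CD3, each against Unstimulated, where the medians of all tested genes were 0.08, -0.04 and 0.18. It was 0.61 in CD3_CD28 against CD3, with -0.24 over all tested genes, and -0.26 in CD3_CD28_ICOS against CD3_CD28, with 0.13 over all tested genes. In CD3_CD28_ICOS against CD3 it was 0.17, with -0.07 over all tested genes. Other scalings of the libraries centre these comparisons elsewhere. The median of all tested genes moved to -0.04 under quantile normalization and to 0.01 under median-of-ratios scaling in CD3 against Unstimulated, to -0.05 and -0.03 in CD3_CD28 against CD3, and to 0.01 and -0.01 in CD3_CD28_ICOS against CD3_CD28. With these 2 scalings the higher share of all called genes became 47.3% and 50.6% in CD3 against Unstimulated instead of 62.4%, and 46.8% and 48.4% in CD3_CD28 against CD3 instead of 29.0%. For CD3_CD28_ICOS it became 51.7% and 48.6% against CD3_CD28 instead of 61.2%, 46.4% and 49.2% against Unstimulated (from 3500 higher and 2332 lower calls with the deposited scaling), and 50.2% and 48.4% against CD3 instead of 39.7%. Against Unstimulated, 7 of the 10 members lay above the median of all tested genes in CD3_CD28_ICOS, 8 in CD3_CD28 and 7 in CD3. Between stimulated groups, 9 lay above it in CD3_CD28 against CD3 (Rela by 0.07), 2 in CD3_CD28_ICOS against CD3_CD28 and 8 in CD3_CD28_ICOS against CD3.

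**Figure D1:**
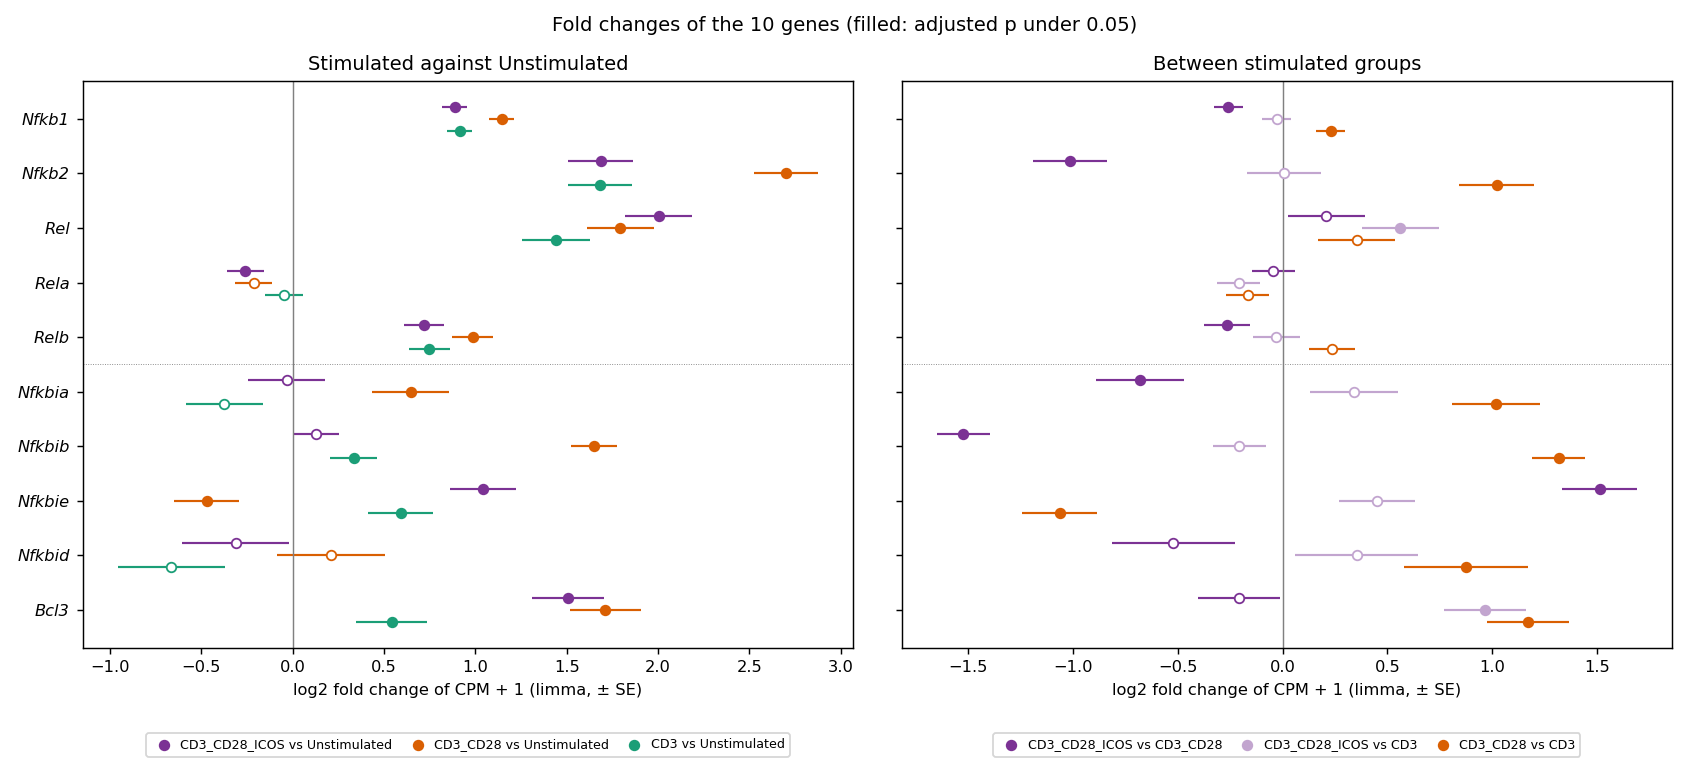
Log2 fold changes (limma, ± SE, filled points with an adjusted p under 0.05) of the 5 subunits and, below the dotted line, the 5 I-kappa-B family genes, with stimulated groups against Unstimulated on the left and against each other on the right. Nfkb2 reaches 2.70 in CD3_CD28 against Unstimulated, Rela lies within 0.26 of 0 throughout, and Nfkbie has the opposite sign to Nfkbib in CD3_CD28 against CD3 (-1.06 and 1.32) and in CD3_CD28_ICOS against CD3_CD28 (1.51 and -1.52).

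Nfkb1 encodes p105, the precursor of p50, the most common partner in classical dimers. The gene lies on chromosome 3 (GRCm38, 135584655 to 135691547, minus strand). Its level was 592, 622 and 610.4 CPM in the CD3_CD28_ICOS libraries, 697, 717 and 769.8 in CD3_CD28, 614, 623 and 623 in CD3, and 329, 314 and 343 in Unstimulated. Every stimulated library lay above every unstimulated one, and every CD3_CD28 library lay above the rest. The log2 fold change against Unstimulated was 0.89 ± 0.07 (SE) in CD3_CD28_ICOS (limma adjusted p = 1.29e-07), 1.14 ± 0.07 in CD3_CD28 (4.23e-09) and 0.91 ± 0.07 in CD3 (4.69e-08). CD3_CD28 exceeded CD3 by 0.23 ± 0.07 (limma adjusted p = 0.0103; 0.0555 under quantile normalization, which ends the call), and CD3_CD28_ICOS fell below CD3_CD28 by 0.26 (log2 fold change -0.26 ± 0.07, 0.00504). CD3_CD28_ICOS and CD3 overlapped, with a log2 fold change of -0.03 ± 0.07.

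Nfkb2 encodes p100, which serves as an inhibitor until it is processed to p52, the partner of RelB in the alternative arm. Nfkb2 is on chromosome 19 (46304320 to 46312385, plus strand). Levels were 203, 133 and 173 CPM in CD3_CD28_ICOS, 276, 437 and 323 in CD3_CD28, 143, 185 and 175 in CD3, and 52.5, 46.4 and 55.4 in Unstimulated. CD3_CD28 did not overlap with any other group, and no stimulated library came near the fresh cells. The gene had the widest span of the 10: group means were 6.71 times those of Unstimulated in CD3_CD28, 3.30 times in CD3_CD28_ICOS and 3.26 times in CD3. In log2 terms these were 2.70 ± 0.18, 1.69 ± 0.18 and 1.68 ± 0.18 (SE; limma adjusted p = 1.70e-08, 3.45e-06 and 2.08e-06). CD3_CD28 exceeded CD3 by 1.02 ± 0.18 (limma adjusted p = 0.000294), and CD3_CD28_ICOS was below CD3_CD28 by about as much (-1.02 ± 0.18, 0.000262). Between CD3_CD28_ICOS and CD3 the log2 fold change was 0.01 ± 0.18, and their libraries overlapped. Of the exonic bases of Nfkb2, 11.6% overlap AC114539.1 and 6.52% overlap Psd on the opposite strand; Psd was at 1.91 to 9.52 CPM, and whether counting used strand is not given in the sources used here.

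Rel encodes c-Rel, the subunit most tied to lymphocyte activation and to interleukin-2 transcription. Rel is on chromosome 11 (23736847 to 23770970, minus strand). Its levels were 273, 241 and 270.2 CPM in CD3_CD28_ICOS, 159, 328 and 221 in CD3_CD28, 171, 176 and 184 in CD3, and 65.8, 64.6 and 63.1 in Unstimulated. All stimulated libraries were higher than the fresh ones, CD3_CD28 was spread widely, and CD3_CD28_ICOS lay wholly above CD3. Against Unstimulated the log2 fold change was 2.00 ± 0.18 (SE) in CD3_CD28_ICOS (limma adjusted p = 1.15e-06), 1.79 ± 0.18 in CD3_CD28 (1.43e-06) and 1.44 ± 0.18 in CD3 (1.43e-05). Rel had its highest mean in CD3_CD28_ICOS, and it rose there against CD3 by 0.56 ± 0.18 (limma adjusted p = 0.024). That call was lost, at adjusted p of 0.0606 to 0.0706, when CD3 replicate 1, CD3 replicate 2, CD3_CD28_ICOS replicate 1 or CD3_CD28_ICOS replicate 3 was left out. CD3_CD28 against CD3 gave 0.35 ± 0.18 (0.11), which became a call of 0.60 (0.00224) without CD3_CD28 replicate 1, the library with the high ribosomal RNA, with CT010467.1 left out (0.41, 0.0388) and under both other scalings (0.49 and 0.57), and which was 0.08 without CD3_CD28 replicate 2. CD3_CD28_ICOS against CD3_CD28 gave 0.21 ± 0.18 (0.341), and this value lay between -0.04 without CD3_CD28 replicate 1 and 0.48 (0.00466) without CD3_CD28 replicate 2.

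Rela encodes p65, the main activating subunit of the classical arm, and was the flat member. Rela is on chromosome 19 (5637483 to 5648130, plus strand). Levels were 116, 87.3 and 104 CPM in CD3_CD28_ICOS, 99.8, 103 and 112 in CD3_CD28, 124, 118 and 111 in CD3, and 125, 114 and 127 in Unstimulated. Neighbouring groups in the order of means overlapped throughout, whereas every CD3_CD28 library lay below every Unstimulated one. Only CD3_CD28_ICOS passed the test against Unstimulated, at a log2 fold change of -0.26 ± 0.10 (SE; limma adjusted p = 0.0432), and the call was lost without CD3_CD28_ICOS replicate 2 (-0.15, 0.206) or 3 (-0.27, 0.0722) and without Unstimulated replicate 1 (-0.24, 0.109) or 3 (-0.23, 0.114). The changes were -0.21 ± 0.10 (0.0725) in CD3_CD28 and -0.05 ± 0.10 (0.681) in CD3 against Unstimulated. CD3_CD28_ICOS against CD3 gave -0.21 ± 0.10 (0.109), a call of -0.30 (0.0249) without CD3_CD28_ICOS replicate 1. The value of -0.17 in CD3_CD28 against CD3 was 0.05 under median-of-ratios scaling, so no direction is given for it.

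Relb encodes RelB, the subunit of the alternative arm. Relb is on chromosome 7 (19606217 to 19629438, minus strand). Levels were 54.1, 44.9 and 50.3 CPM in CD3_CD28_ICOS, 52.1, 70.4 and 58.6 in CD3_CD28, 50.5, 50.1 and 51.4 in CD3, and 31.4, 28.3 and 29.7 in Unstimulated. Stimulated libraries were all above fresh ones, and CD3_CD28 lay above CD3 but overlapped with CD3_CD28_ICOS. Log2 fold changes against Unstimulated were 0.72 ± 0.11 (SE) in CD3_CD28_ICOS, 0.98 ± 0.11 in CD3_CD28 and 0.75 ± 0.11 in CD3 (limma adjusted p = 8.01e-05, 1.95e-06 and 3.62e-05). Relb fell in CD3_CD28_ICOS against CD3_CD28 by a small margin (-0.27 ± 0.11, 0.0493), a call that ended without CD3_CD28 replicate 2 (-0.15, 0.234) or 3 (0.0771), without CD3_CD28_ICOS replicate 2 (-0.20, 0.164) or 3 (0.0885), and without the filter on low values (0.0615). CD3_CD28 against CD3 gave 0.24 ± 0.11 (0.0749), and it became a call of 0.44 under quantile normalization (0.000967), of 0.45 under median-of-ratios scaling (0.00114), of 0.30 with CT010467.1 left out (0.0149) and of 0.34 without CD3_CD28 replicate 1 (0.0194).

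**Figure D2:**
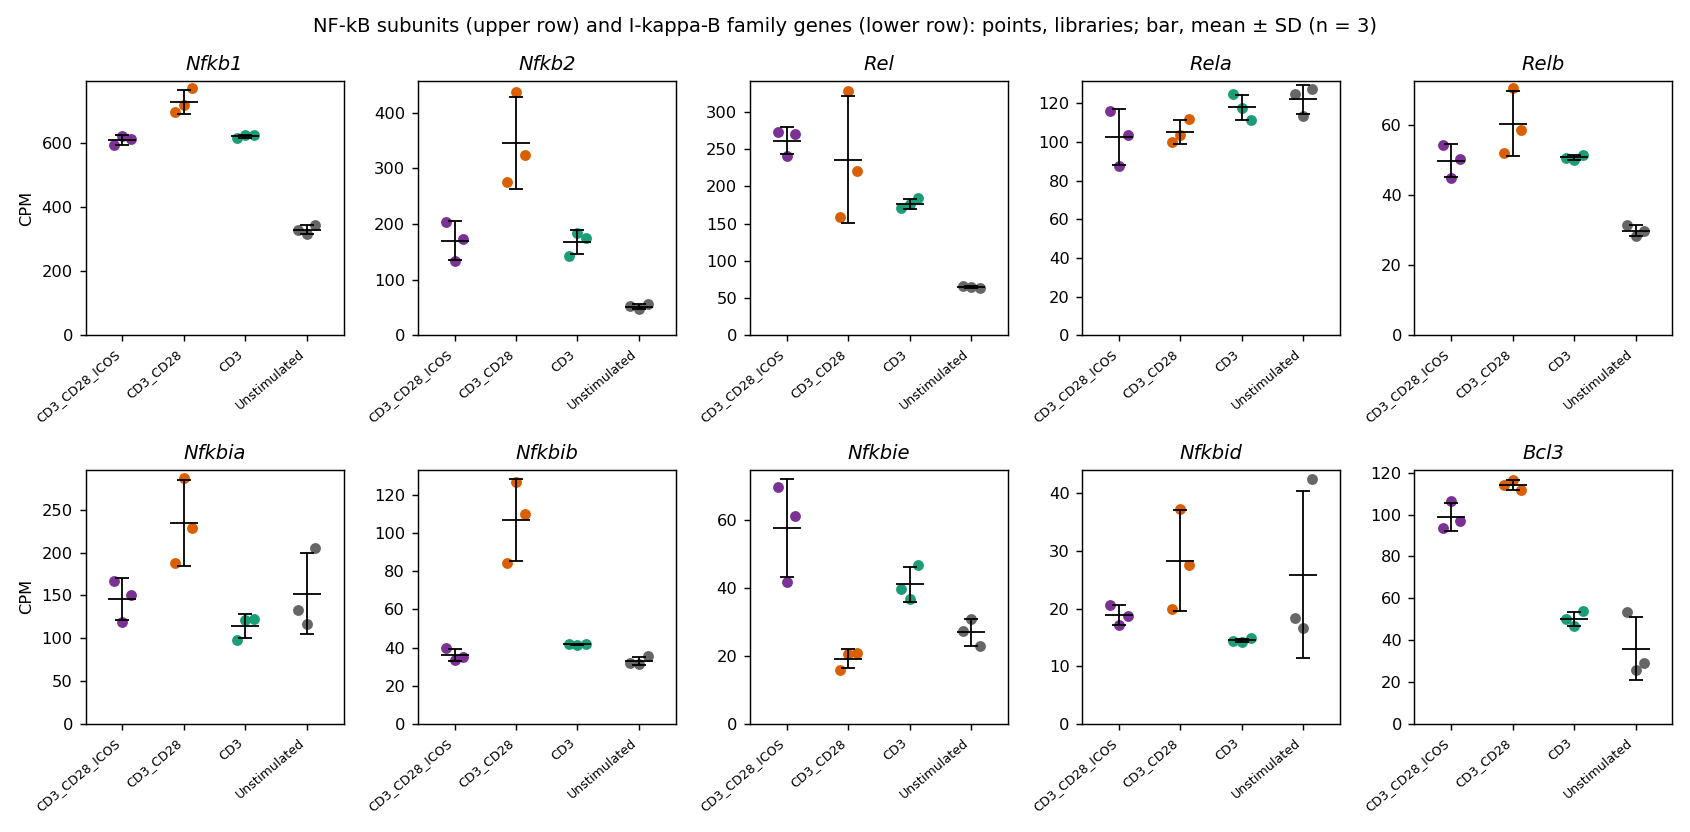
CPM of each gene in each of the 12 libraries (points), with the group mean and SD (n = 3) in black and a separate vertical axis from 0 for each gene. Nfkb1, Nfkb2, Rel and Relb are lowest in Unstimulated, Rela is near level at 87.3 to 127 CPM, Nfkbib stands out in CD3_CD28, and Nfkbie is lowest there.

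Because the subunits moved unequally, the mix of their mRNAs shifted. Set per length, as CPM per kb of exon, the 5 subunit levels summed to 169 ± 14.6 in CD3_CD28_ICOS, 217 ± 32.8 in CD3_CD28, 163 ± 4.19 in CD3 and 94.5 ± 4.76 in Unstimulated (SD, n = 3 each). Rela made up 19.7% ± 1.10 of that sum in CD3_CD28_ICOS, 15.95% ± 2.21 in CD3_CD28, 23.5% ± 1.81 in CD3 and 42.0% ± 0.438 in Unstimulated. By this measure Rela was the largest share in fresh cells and came behind Nfkb1 in each stimulated group. The length is that of all annotated exons of a gene merged, 12.061 kb for Nfkb1 and 3.072 kb for Rela. In CPM, Nfkb1 was above Rela in fresh cells as well, at means of 329 and 122, so this ranking rests on the lengths.
Nfkb2 took 21.8% ± 2.72 in CD3_CD28_ICOS, 34.4% ± 3.15 in CD3_CD28, 22.4% ± 2.37 in CD3 and 11.9% ± 0.476 in Unstimulated. It was the largest share in CD3_CD28 by this measure, whereas in CPM Nfkb1 was above Nfkb2 there (means of 728 and 345). Rel took 20.8% ± 0.58 in CD3_CD28_ICOS, 14.3% ± 3.05 in CD3_CD28, 14.5% ± 0.451 in CD3 and 9.16% ± 0.548 in Unstimulated. Its share in every CD3_CD28_ICOS library, 20.1 to 21.2%, was above that in every other library. Relb kept a narrow share of 7.01 to 8.40% over all 12 libraries.
The ratio of Rel to Rela in CPM, which needs no reference to other genes, was 2.58 ± 0.207 in CD3_CD28_ICOS, 2.25 ± 0.825 in CD3_CD28, 1.51 ± 0.141 in CD3 and 0.53 ± 0.037 in Unstimulated. The ratio of Nfkb2 to its partner Relb was 3.38 ± 0.40 in CD3_CD28_ICOS, 5.67 ± 0.481 in CD3_CD28, 3.31 ± 0.436 in CD3 and 1.73 ± 0.121 in Unstimulated. These ratios describe unequal change between mRNAs and not the amount of any dimer.

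**Figure D3:**
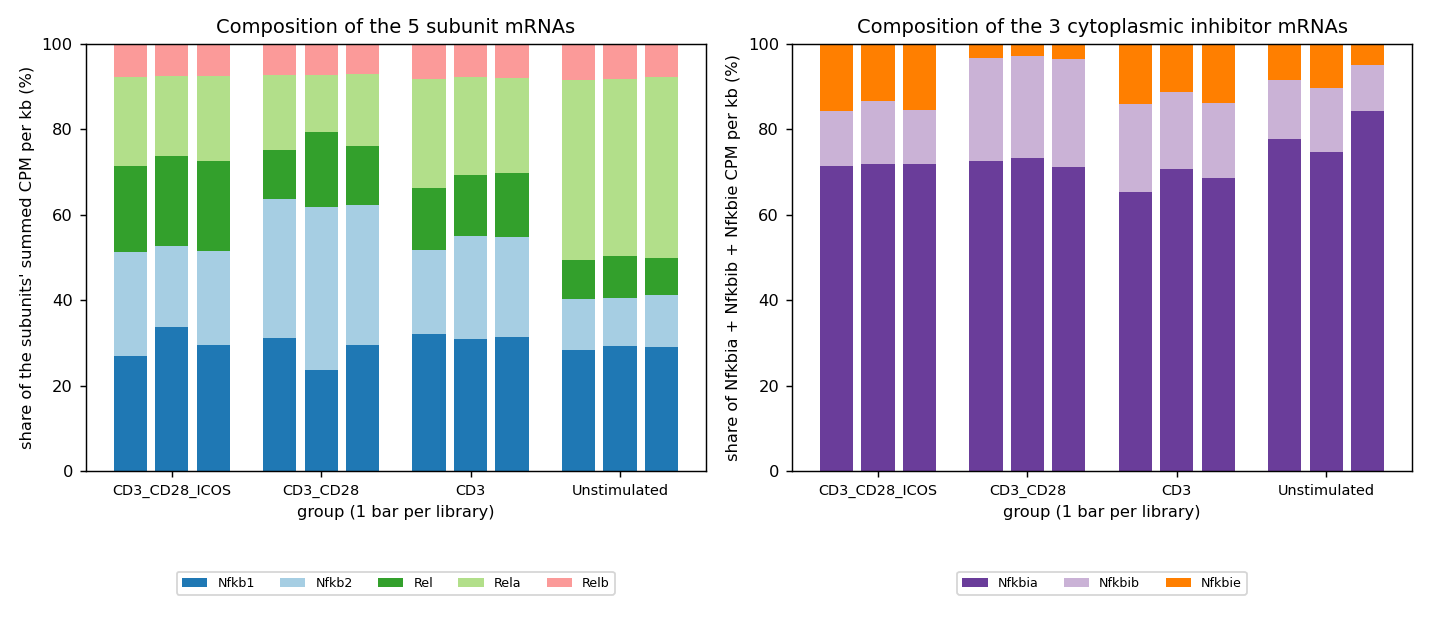
Composition of the family by library, as shares of CPM per kb of exon: the 5 subunit mRNAs on the left and the 3 cytoplasmic inhibitor mRNAs on the right, with 1 bar per library. Rela fills 41.5 to 42.3% of the subunit bars in Unstimulated and 13.4 to 25.6% in the stimulated groups, and Nfkbie narrows to 2.79 to 3.43% of the inhibitor bars in CD3_CD28.

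The inhibitors did not follow a common course. Nfkbia encodes I-kappa-B-alpha, the fast inhibitor that NF-kB itself induces. Nfkbia is on chromosome 12 (55489410 to 55492647, minus strand). Levels were 167, 119 and 150.5 CPM in CD3_CD28_ICOS, 188, 287 and 229 in CD3_CD28, 97.8, 122 and 122.9 in CD3, and 133, 117 and 206 in Unstimulated. CD3_CD28 lay above CD3 and CD3_CD28_ICOS, but overlapped with Unstimulated through its replicate 3. The log2 fold change of CD3_CD28 was 1.02 ± 0.21 (SE) against CD3 (limma adjusted p = 0.00116) and 0.65 ± 0.21 against Unstimulated (0.014), and CD3_CD28_ICOS was lower than CD3_CD28 (-0.68 ± 0.21, 0.0136). Without CD3_CD28 replicate 2 the last 2 calls were lost, at adjusted p of 0.0651 and 0.0608; the call against Unstimulated also ended without Unstimulated replicate 1 (0.0522) or 2 (0.0624), and that against CD3_CD28 without CD3_CD28_ICOS replicate 2 (0.0574). CD3_CD28_ICOS against Unstimulated gave -0.03 ± 0.21 (0.903), and CD3 against Unstimulated gave -0.37 ± 0.21 (0.129), which passed the test under both other scalings (-0.51 and -0.55) and without Unstimulated replicate 2 (-0.54, 0.0429), and was -0.14 without Unstimulated replicate 3.

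Nfkbib encodes I-kappa-B-beta, an inhibitor degraded more slowly. Nfkbib is on chromosome 7 (28758251 to 28767512, minus strand). Levels were 39.8, 33.3 and 35.3 CPM in CD3_CD28_ICOS, 84.2, 127 and 109.8 in CD3_CD28, 41.9, 41.3 and 42.0 in CD3, and 31.9, 31.5 and 35.5 in Unstimulated. The lowest CD3_CD28 library was above the highest library of any other group, and CD3_CD28_ICOS overlapped with Unstimulated. CD3_CD28 exceeded CD3 by 1.32 ± 0.13 (SE) and Unstimulated by 1.65 ± 0.13 on the log2 scale (limma adjusted p = 2.46e-06 and 4.52e-08), and CD3_CD28_ICOS fell below CD3_CD28 (-1.52 ± 0.13, 3.25e-07). CD3 exceeded Unstimulated by 0.33 ± 0.13 (0.0317), a call lost under quantile normalization (0.10, adjusted p = 0.42), under median-of-ratios scaling (0.17, 0.191), and without any CD3 library or without Unstimulated replicate 1 or 2. CD3_CD28_ICOS against Unstimulated gave 0.13 ± 0.13 (0.406). Its exonic bases overlap Ccer2 (14.5%) and Sirt2 (1.94%) on the opposite strand; Sirt2 was at 68.6 to 114 CPM.

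Nfkbie encodes I-kappa-B-epsilon, an inhibitor of c-Rel and RelA dimers that is prominent in B cells. Nfkbie is on chromosome 17 (45555703 to 45563169, plus strand). Levels were 69.7, 41.6 and 61.3 CPM in CD3_CD28_ICOS, 16.002, 20.7 and 20.9 in CD3_CD28, 39.7, 36.7 and 46.9 in CD3, and 27.4, 30.7 and 22.9 in Unstimulated. CD3_CD28 was below every other library, and CD3_CD28_ICOS and CD3 were above Unstimulated while overlapping with each other. The log2 fold change was 1.51 ± 0.18 (SE) in CD3_CD28_ICOS against CD3_CD28 (limma adjusted p = 8.33e-06) and -1.06 ± 0.18 in CD3_CD28 against CD3 (0.000215). Against Unstimulated it was 1.04 ± 0.18 in CD3_CD28_ICOS (0.00023), -0.47 ± 0.18 in CD3_CD28 (0.0288) and 0.59 ± 0.18 in CD3 (0.00963). The call in CD3_CD28 against Unstimulated was lost without CD3_CD28 replicate 1 (-0.35, 0.121) or without Unstimulated replicate 1 (-0.46, 0.0686) or 2 (-0.38, 0.11), and the call in CD3 against Unstimulated was lost under quantile normalization (0.35, 0.0542). CD3_CD28_ICOS against CD3 gave 0.45 ± 0.18 (0.0531), which became a call under quantile normalization (0.56, 0.00734), under median-of-ratios scaling (0.52, 0.0148), and without CD3 replicate 3 (0.55, 0.045) or CD3_CD28_ICOS replicate 2 (0.66, 0.00337).
B cell markers also differed between the groups. The 8 B cell markers summed to 621, 207 and 524 CPM in CD3_CD28_ICOS, 11.4, 7.29 and 8.55 in CD3_CD28, 302, 318 and 657 in CD3, and 189, 122 and 218 in Unstimulated. All 8 were read in every library except that Blk was at 0 in CD3_CD28 replicates 2 and 3. The order of Nfkbie among the CD3_CD28_ICOS libraries was that of the marker sum, and the highest CD3 library was highest in both, whereas among CD3_CD28 and Unstimulated libraries the highest marker sum went with the lowest Nfkbie. The part of B cells in the level of Nfkbie was not tested.

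Nfkbid encodes I-kappa-B-NS, a nuclear member that modulates chosen targets. Nfkbid is on chromosome 7 (30421732 to 30428746, plus strand), and per length it was the lowest of the 10 in CD3, at a mean of 6.18 CPM per kb. Levels were 20.6, 17.2 and 18.6 CPM in CD3_CD28_ICOS, 19.9, 37.3 and 27.6 in CD3_CD28, 14.4, 14.2 and 14.8 in CD3, and 18.4, 16.6 and 42.5 in Unstimulated. CD3_CD28 and Unstimulated overlapped, Unstimulated replicate 3 was the highest library, and the CD3 libraries were below all others. CD3_CD28 exceeded CD3 by 0.87 ± 0.29 on the log2 scale (SE; limma adjusted p = 0.0205), and the adjusted p was 0.0501 to 0.0862 without CD3 replicate 1 or 2 or without CD3_CD28 replicate 2 or 3. Against Unstimulated the values were -0.31 ± 0.29 (0.377) in CD3_CD28_ICOS, 0.21 ± 0.29 (0.532) in CD3_CD28 and -0.67 ± 0.29 (0.0602) in CD3. Without Unstimulated replicate 3 they were 0.10 (0.684) in CD3_CD28_ICOS, 0.62 (0.0123, a call) in CD3_CD28 and -0.25 (0.269) in CD3. The CD3 value passed the test without Unstimulated replicate 1 (-0.84, 0.0412) or 2 (-0.91, 0.0181) and under both other scalings (-0.94 and -0.83).
That library also differed in early-response genes. The 10 listed genes, among them the transcription factor gene Fos (1275 CPM in Unstimulated replicate 3 and 70.7 or less elsewhere), summed to 644 to 842 CPM in CD3_CD28_ICOS, 518 to 873 in CD3_CD28, 582 to 758 in CD3, and 760, 571 and 5334 in Unstimulated replicates 1, 2 and 3. Of these 10 genes, 1 was at 0 in CD3 replicate 1. Unstimulated replicate 3 was also the highest of its group in Nfkbia, at 206 CPM, and the A20 gene Tnfaip3 averaged 306 ± 377 CPM in that group. The part of this response in the levels of Nfkbid and Nfkbia was not tested.

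**Figure D4:**
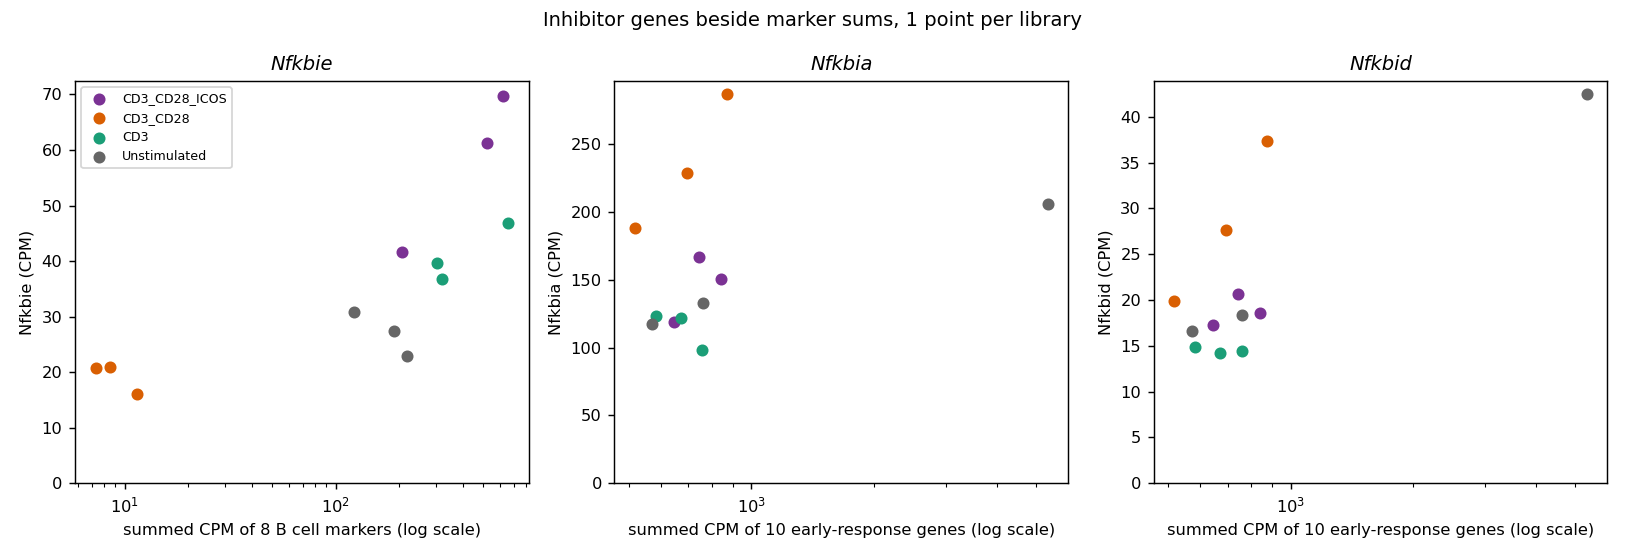
CPM of Nfkbie against the summed CPM of 8 B cell markers, and of Nfkbia and Nfkbid against the summed CPM of 10 early-response genes, with 1 point per library and log horizontal axes. The CD3_CD28 libraries sit at the low end of the B cell axis with 16.002 to 20.9 CPM of Nfkbie, and a single Unstimulated library lies far right on the early-response axis, at 5334 CPM.

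Bcl3 encodes a nuclear I-kappa-B protein that joins p50 or p52 on DNA and can turn such dimers into activators. Bcl3 is on chromosome 7 (19808462 to 19822770, minus strand). Levels were 93.6, 106 and 96.9 CPM in CD3_CD28_ICOS, 114, 117 and 112 in CD3_CD28, 50.1, 46.9 and 53.7 in CD3, and 53.3, 25.6 and 29.1 in Unstimulated. CD3_CD28_ICOS and CD3_CD28 were above every CD3 and Unstimulated library, whereas CD3 overlapped with Unstimulated replicate 1. Against CD3 the log2 fold change was 0.96 ± 0.20 (SE) in CD3_CD28_ICOS (limma adjusted p = 0.00153) and 1.17 ± 0.20 in CD3_CD28 (0.000238), and these 2 comparisons share the CD3 libraries. CD3_CD28_ICOS against CD3_CD28 gave -0.21 ± 0.20 (0.374), and here the libraries did not overlap. Against Unstimulated it was 1.51 ± 0.20 in CD3_CD28_ICOS (2.65e-05), 1.71 ± 0.20 in CD3_CD28 (3.92e-06) and 0.54 ± 0.20 in CD3 (0.0255). The CD3 call was lost under quantile normalization (0.30, 0.187), under median-of-ratios scaling (0.37, 0.112), and without CD3 replicate 1 or 3 or Unstimulated replicate 2 or 3, with adjusted p of 0.0566 to 0.122 and the lowest value, 0.34, without Unstimulated replicate 2, whereas without Unstimulated replicate 1 it was 0.85 (9.03e-06). Gm16175 overlaps 6.51% of its exonic bases on the opposite strand.

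Set per length, the 5 I-kappa-B family genes summed to 174 ± 19.3 CPM per kb in CD3_CD28_ICOS, 260 ± 45.6 in CD3_CD28, 130.1 ± 9.92 in CD3 and 144 ± 34.1 in Unstimulated (SD, n = 3 each). Divided by the subunit sum, this gave 1.03 ± 0.0257 in CD3_CD28_ICOS, 1.19 ± 0.0295 in CD3_CD28, 0.798 ± 0.0477 in CD3 and 1.52 ± 0.296 in Unstimulated. The ranges of the 4 groups did not overlap, with CD3 lowest at 0.754 to 0.849. These ratios rest on the merged exon lengths used. With only Nfkbia, Nfkbib and Nfkbie in the numerator, CD3_CD28_ICOS (0.674 to 0.798) and CD3 (0.588 to 0.677) overlapped. Of the 3 cytoplasmic inhibitors Nfkbia, Nfkbib and Nfkbie, Nfkbia held 65.2 to 84.3% of the summed CPM per kb in every library. Nfkbie held 14.8% ± 1.38 in CD3_CD28_ICOS, 3.16% ± 0.332 in CD3_CD28, 13.1% ± 1.51 in CD3 and 7.93% ± 2.75 in Unstimulated. The ratio of Nfkbib to Nfkbie in CPM was 0.649 ± 0.131 in CD3_CD28_ICOS, 5.55 ± 0.49 in CD3_CD28, 1.03 ± 0.118 in CD3 and 1.25 ± 0.273 in Unstimulated.

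Genes around the core were read from 4 lists chosen by function with earlier results of these data known. Of 19 genes of the IKK complex and upstream of it, all tested, 5 rose and 5 fell in CD3_CD28_ICOS against Unstimulated, 3 rose and 11 fell in CD3_CD28, and 2 rose and 8 fell in CD3. Over all tested genes, 35.6% rose and 23.7% fell in CD3_CD28_ICOS, 36.1% and 39.1% in CD3_CD28, and 43.6% and 26.3% in CD3, and the medians of the list were -0.08, -0.29 and -0.16 against 0.08, -0.04 and 0.18. In CD3_CD28 against CD3, 2 rose, Malt1 and Traf6, and 9 fell, where 18.7% of tested genes rose and 45.7% fell, with a median log2 fold change of -0.09 against -0.24 over all tested genes. Malt1, a protease that relays antigen receptor signals to NF-kB, averaged 303 ± 24.8 CPM in CD3_CD28 and 189 ± 10.7 in CD3 (log2 0.68 ± 0.09, limma adjusted p = 3.44e-05). Traf6, a ubiquitin ligase upstream of IKK, averaged 212 ± 14.3 CPM in CD3_CD28 and 105 ± 5.47 in CD3 (1.01 ± 0.08, 5.58e-07). Ikbkb, the main catalytic kinase of IKK, went the other way, with 47.5 ± 4.70 CPM in CD3_CD28 and 94.5 ± 12.7 in CD3 (-0.97 ± 0.12, 1.58e-05). In CD3_CD28_ICOS against CD3_CD28, 8 rose and 2 fell, the 2 being Malt1 (-0.92) and Traf6 (-0.89), where 38.5% of tested genes rose and 24.5% fell, with a median of 0.17 against 0.13. Prkcq, the protein kinase C isoform that relays the T cell receptor signal, averaged 423 ± 17.4 CPM in CD3_CD28_ICOS and 195 ± 12.8 in CD3_CD28 (1.12 ± 0.10, 4.37e-07). Its mean was 231 ± 31.7 in CD3 and 525 ± 31.8 in Unstimulated, and it fell against Unstimulated in all stimulated groups (-0.31 in CD3_CD28_ICOS, -1.43 in CD3_CD28 and -1.19 in CD3). In CD3_CD28_ICOS against CD3, 4 rose and 1 fell, where 18.9% of tested genes rose and 28.7% fell (median 0.11 against -0.07). Map3k14, the kinase of the alternative arm, fell in all stimulated groups, with 69.0 ± 5.39 CPM in CD3_CD28_ICOS, 62.7 ± 2.69 in CD3_CD28, 63.6 ± 3.43 in CD3 and 118 ± 4.01 in Unstimulated.

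Of 17 other inhibitors and deubiquitinases, 16 were tested. Against Unstimulated, 8 rose and 0 fell in CD3_CD28_ICOS (limma; 0 also at an unadjusted p under 0.05), 6 rose and 3 fell in CD3_CD28, and 8 rose and 3 fell in CD3. The shares over all tested genes were 35.6% and 23.7% in CD3_CD28_ICOS, 36.1% and 39.1% in CD3_CD28, and 43.6% and 26.3% in CD3, and the medians of the list were 0.27, 0.25 and 0.13 against 0.08, -0.04 and 0.18. In CD3_CD28 against CD3, 4 rose and 5 fell (18.7% and 45.7% of tested genes; median 0.15 against -0.24), in CD3_CD28_ICOS against CD3_CD28, 5 rose and 3 fell (38.5% and 24.5%, -0.03 against 0.13), and in CD3_CD28_ICOS against CD3, 6 rose and 1 fell (18.9% and 28.7%, 0.23 against -0.07). Tnip1, which binds A20, averaged 162 ± 5.97 CPM in CD3_CD28_ICOS, 245 ± 29.0 in CD3_CD28, 119 ± 3.43 in CD3 and 134 ± 6.53 in Unstimulated. It rose in CD3_CD28 against CD3 (1.02 ± 0.09, limma adjusted p = 1.03e-06). Cyld, a deubiquitinase that restrains IKK, rose in CD3_CD28_ICOS against CD3_CD28 (0.98 ± 0.08, 4.25e-07), with 301 ± 13.2 CPM in CD3_CD28_ICOS and 153 ± 13.2 in CD3_CD28. Tnfaip3, the gene of A20, passed no comparison, with an SE of 0.71 log2 units in each.

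Known targets of NF-kB were read next. Of 40 listed, 35 were tested, and Tnfaip3, Tnip1 and Nfkbiz stand in this list and in the last one. Against Unstimulated 21 rose and 4 fell in CD3_CD28_ICOS, 25 rose and 5 fell in CD3_CD28, and 21 rose and 5 fell in CD3, where 35.6% and 23.7%, 36.1% and 39.1%, and 43.6% and 26.3% of tested genes did, with medians of 0.68, 1.54 and 0.78 against 0.08, -0.04 and 0.18 over all tested genes. In CD3_CD28 against CD3, 18 rose and 6 fell, where 18.7% and 45.7% of tested genes did (median 0.62 against -0.24). In CD3_CD28_ICOS against CD3_CD28, 7 rose and 19 fell, where 38.5% and 24.5% of tested genes did (-0.59 against 0.13). In CD3_CD28_ICOS against CD3, 10 rose and 6 fell, where 18.9% and 28.7% did (0.18 against -0.07).
Bcl2l1, which encodes the survival protein Bcl-xL, averaged 50.3 ± 8.59 CPM in CD3_CD28_ICOS, 208 ± 23.2 in CD3_CD28, 34.8 ± 4.37 in CD3 and 19.0 ± 0.712 in Unstimulated. Il2ra, the interleukin-2 receptor alpha chain, averaged 371 ± 24.1 CPM in CD3_CD28_ICOS, 1151 ± 156 in CD3_CD28, 440.3 ± 20.2 in CD3 and 28.4 ± 7.07 in Unstimulated. Both had their highest values in CD3_CD28, as did Tnfrsf9, the gene of the costimulatory receptor 4-1BB, at 1193 ± 90.9 CPM there and 402 ± 37.5 in CD3 (1.57 ± 0.13, limma adjusted p = 6.29e-07).
The 6 targets that fell in CD3_CD28 against CD3 were Birc2 (log2 -0.77), Bcl2a1b (-0.99), Bcl2a1d (-1.54), Tap1 (-0.36), Irf1 (-1.56) and Ccl22 (-4.72). Each had its lowest mean among the stimulated groups in CD3_CD28. Irf1, an interferon-related transcription factor, averaged 385 ± 13.2 CPM in CD3_CD28_ICOS, 112 ± 14.7 in CD3_CD28, 332 ± 50.4 in CD3 and 191 ± 8.60 in Unstimulated. Ccl22, a chemokine also made by B and myeloid cells, averaged 71.6 ± 21.9 CPM in CD3_CD28_ICOS, 3.13 ± 1.76 in CD3_CD28, 108 ± 47.3 in CD3 and 0.445 ± 0.194 in Unstimulated. The summed B cell markers given for Nfkbie were low in CD3_CD28 as well, and their part in these levels was not tested.
Of 12 nuclear partners, 3 rose and 6 fell in CD3_CD28_ICOS, 2 rose and 7 fell in CD3_CD28, and 4 rose and 6 fell in CD3 against Unstimulated, beside the same shares of all tested genes as for the targets, with medians of -0.30, -0.32 and -0.21 against 0.08, -0.04 and 0.18. Among the stimulated groups 1 rose and 6 fell in CD3_CD28 against CD3 (18.7% and 45.7% of tested genes; median -0.25 against -0.24), 5 rose and 3 fell in CD3_CD28_ICOS against CD3_CD28 (38.5% and 24.5%; 0.22 against 0.13), and 3 rose and 4 fell in CD3_CD28_ICOS against CD3 (18.9% and 28.7%; 0.02 against -0.07). Crebbp, an acetyltransferase that NF-kB recruits, averaged 215 ± 13.1 CPM in CD3_CD28_ICOS, 109 ± 15.0 in CD3_CD28, 133 ± 8.73 in CD3 and 313 ± 17.8 in Unstimulated.

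**Figure D5:**
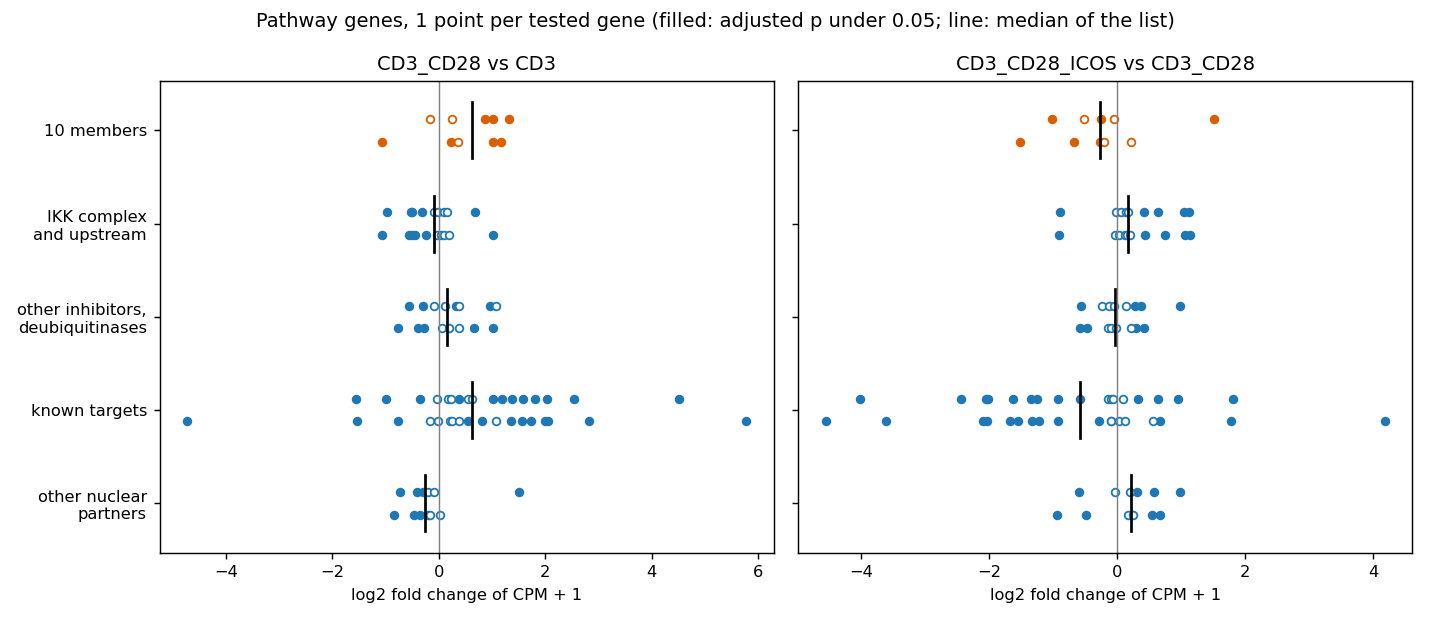
Log2 fold changes of the 10 members and of the tested genes of 4 pathway lists in CD3_CD28 against CD3 (left) and CD3_CD28_ICOS against CD3_CD28 (right), with 1 point per gene, filled where the adjusted p is under 0.05, and a line at each median. The medians of the members (0.61 and -0.26) and of the known targets (0.62 and -0.59) change side between the panels, which share the CD3_CD28 libraries.

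Over the 12 libraries, the patterns of the 3 widest-ranging members were compared with all other tested genes by Pearson correlation of log2(CPM + 1), as a description that shares libraries and scaling. Nfkb2 was most like Zc3h14 (0.989), Bmyc (0.987) and Plagl2 (0.982). Rel was most like Inf2 (0.985), Mxd1 (0.977) and Fas (0.974), and Bcl3 was most like Zfp97 (0.962), C1qtnf6 (0.957) and Ikzf4 (0.957).

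The authors' deposited table lists 6 members higher and 0 lower in CD3_CD28_ICOS, 7 and 0 in CD3_CD28, and 4 and 0 in CD3 against Unstimulated at a false discovery rate under 0.05. Between stimulated groups the authors' deposited table calls 1 higher and 4 lower in CD3_CD28_ICOS against CD3_CD28 and 1 higher and 0 lower in CD3_CD28_ICOS against CD3. It gives its remaining comparison as CD3 over CD3_CD28, with 1 member higher, Nfkbie, and 4 lower, Nfkb2, Nfkbia, Nfkbib and Bcl3. The share of all genes called by the authors was not computed. These counts therefore set their calls on the members beside those given here, and are no result about the members against other genes. The log2 ratio of Nfkbie in the authors' deposited table was 1.58 in CD3_CD28_ICOS over CD3_CD28, and that of Nfkb2 was 2.75 in CD3_CD28 over Unstimulated.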

How the data were processed

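RNA of 12 libraries of mouse CD4+ T cells was sequenced paired-end. The authors deposited CPM values, with 0.0001 added to each cell (removed here). Partek (version 10), DESeq2 and the mm10 build appear in the submitters' processing notes; which aligner, annotation, filters and strand setting were used is not given in the sources used here. The authors deposited a second table with FDR values (adjusted p-values) and log2 ratios of their own comparisons. Depth was estimated from steps in low CPM values; 76.4 to 81.4% of those were whole multiples within 0.02 step, too few to recover whole reads, and no count test was run. Gene positions matched GENCODE M21 for 96.8% of the genes. Groups and replicate numbers came from the titles, and 0 sample columns were unused.

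Genes at 10 CPM or more in 3 libraries (9826) were fitted as log2(CPM + 1) with limma 3.58.1 in R 4.3.3 over all 12 libraries, with trend and robust estimation; tests are two-sided, adjusted by Benjamini-Hochberg with a threshold of 0.05. The fit was tested on simulated data. The design had allowed for counts, and the CPM test was used. All 10 members are named; other names are called list genes, the 3 genes most correlated with each of the 3 widest members, and Fos, Tnfaip3 and CT010467.1. Members and lists were chosen with earlier results of these data known. Alternatives were other scalings, filters and pseudocount, a replicate block, the 2 groups alone, leaving out CT010467.1, and leaving out each library. Some items are not reported here.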

Additional observations from a re-analysis of the deposited data

How the results depend on the processing

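Of 60 member values (10 genes in 6 comparisons), 37 passed the test. Of these, 26 did so under all 14 alternatives and, where it applied, the one chosen after seeing the data, 11 lost the call in at least 1, and 0 changed sign. A pooled share over all tested genes was not computed, so these counts describe the steadiness of the calls and are no result about the members. Of the 23 member values that did not pass, 10 changed sign. For these no direction holds, and the cause was not tested. In CD3 against Unstimulated, the members called higher went to 4 (7 with the deposited scaling) under quantile normalization, and those called lower became 2 (instead of 0) under quantile normalization, 2 under median of ratios, and 0 to 2 with 1 library left out. Of all 9826 tested genes, 4280 rose and 2582 fell there with the deposited scaling. Under quantile normalization 3313 rose and 3684 fell, and under median of ratios 3544 and 3466. With 1 library left out, 2327 to 2621 fell. Members called lower against Unstimulated, 1 each in CD3_CD28_ICOS and CD3_CD28, became 0 to 1 with 1 library left out. In CD3_CD28_ICOS the count was 0 with no filter on low values and 0 in a fit of the 2 groups alone. Of all tested genes, 1989 to 2414 fell in CD3_CD28_ICOS and 3497 to 3874 in CD3_CD28 with 1 library left out. In CD3_CD28_ICOS 3744 of 17203 fell with no filter and 2143 of 9826 in the 2 groups alone. Leaving out Unstimulated replicate 3 and CD3_CD28 replicate 1 together, the alternative chosen after seeing the data, gave 0 members lower against Unstimulated in CD3_CD28_ICOS and CD3_CD28, where 2473 and 3578 of all tested genes fell. With 1 library left out, CD3_CD28_ICOS against CD3_CD28 had 1 to 2 members higher and 3 to 5 lower, and CD3_CD28_ICOS against CD3 had 1 to 3 higher and 0 to 1 lower. In the same fits, 3278 to 3833 of all 9826 tested genes rose and 2055 to 2468 fell against CD3_CD28. Against CD3, 1381 to 1814 rose and 2277 to 2834 fell. Members that differed among the stimulated groups numbered 6 to 9 with 1 library left out (7 with all). For the fits with 1 library left out, the share of all tested genes that differed was not computed.

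Log2 values that turned sign under quantile normalization were Nfkbib in CD3_CD28_ICOS against Unstimulated (-0.008), Rela in CD3_CD28 against CD3 (0.0002) and Relb in CD3_CD28_ICOS against CD3 (0.0835). Under median of ratios they were Rela in CD3_CD28 against CD3 (0.047), and Nfkb1 (0.0381) and Relb (0.0363) in CD3_CD28_ICOS against CD3. With the 2 libraries left out together they were Nfkbia (0.2063) and Nfkbid (0.0998) in CD3_CD28_ICOS against Unstimulated and Rel in CD3_CD28_ICOS against CD3_CD28 (-0.0433). With 1 library left out, Nfkbid ranged over -0.0323 to 0.6213 in CD3_CD28 against Unstimulated and -0.5538 to 0.0998 in CD3_CD28_ICOS against Unstimulated, and Nfkbia over -0.1975 to 0.2063 in the last of these. Against CD3_CD28, CD3_CD28_ICOS ranged over -0.0433 to 0.4769 for Rel and -0.1391 to 0.0643 for Rela. Against CD3 it ranged over -0.1357 to 0.1683 for Nfkb2 and -0.0908 to 0.0411 for Relb.

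Of 18 correlations between deviations of same-numbered libraries, from -0.0998 to 0.408, 6 were above 0.1, the highest being 0.408 and 0.335 for replicates 2 and 3 of CD3_CD28_ICOS and CD3. No pair of groups had all its correlations above 0.1, so the numbers were not taken to pair the libraries. With a replicate block, Relb in CD3_CD28_ICOS against CD3_CD28 lost its call (log2 -0.27, adjusted p = 0.0713), and no other member call changed. As to depth, 1 read was worth 0.0267 to 0.0879 CPM, and the lowest member value was 14.2 CPM.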
